A study of Mus musculus with 23 samples.

Results

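A set of 8 genes of bone morphogenetic protein (BMP) signalling was followed by their symbols and identifiers among the 55573 genes counted in every library. These 8 genes were Id1, Id2, Id3 and Id4, the ligands Bmp4 and Bmp7, and the feedback inhibitors Smad6 and Bambi. All were found. BMP ligands bind paired receptor kinases that phosphorylate SMAD proteins, which enter the nucleus and switch on target genes, among them the Id genes, Smad6 and Bambi. ID proteins lack a DNA-binding domain and hold the bHLH factors that drive differentiation away from DNA. In mouse embryonic stem cells (ESCs) grown in serum, BMP-driven ID proteins are known to act beside the cytokine LIF in holding back neural commitment.

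The cells were ESCs kept on embryonic fibroblast feeders in serum with LIF, and polyadenylated RNA was measured as tags from the 3′ ends of transcripts. R1 ESCs, wild type (WT) or SET knockout (SET-/-, KO), were sampled in set 1 (2 WT, 2 KO1 and 2 KO2 samples) and in set 2 (again 2 WT, 2 KO1 and 2 KO2 samples). SET is a histone chaperone and an inhibitor of the phosphatase PP2A, and the series' title asks how it bears on ESC differentiation. Set 2 also held 1 WT and 2 KO samples after 4 d of retinoic acid (RA), a differentiation signal. Both KO RA samples are titled KO1, but their deposited files are named for different clones, so their line is uncertain and they are called KO here. KH2 ESCs carried an HA-tagged SETa construct behind a doxycycline-inducible promoter, and were sampled as 2 samples without doxycycline (Dox) and 2 after 24 h of 1 μg/mL Dox. The labels do not say how the KO lines were made, nor whether a line name stands for the same clone in set 1 as in set 2. They do not say either that replicates were separate cultures, so the p-values rest on a sample spread that may be technical.

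The 23 libraries made 19 samples, because libraries with 1 title code (2a, 2b, 2d and 2e) were summed. Their titles number them as separate replicates, and whether they are technical repeats is not stated, so values with every library as its own sample are given where they change a call. Set 1 samples were the shallowest, with 806412 to 1445013 counts each. Untreated set 2 samples had 2833064 to 10217040, RA samples 3904924 to 5047363 and KH2 samples 4848478 to 6472695. Levels are CPM, the share of a library's counts on a fixed scale, adjusted by TMM. Set itself stood at 1010 and 1043 CPM in set 1 WT against 17.9 to 26.4 in set 1 KO, and at 1185 and 1364 in set 2 WT against 272 to 559 in set 2 KO, so Set tags remained in the set 2 KO samples. After RA it was 554 CPM in WT and 183 and 268 in KO, and Dox took it from 931 and 985 to 1094 and 1217 CPM in KH2 cells. The summed level of 10 ESC markers was 1760 to 4583 CPM in all untreated and Dox samples and 264 to 320 after RA. The 10 untreated set 2 libraries fell on both sides of a gap along their first principal component, 5 on side A and 5 on side B. That component held 33.9% of the variance. The gap (18.5) was smaller than the span of side A (19.5) and larger than that of side B (14.4). Each side held 2 WT and 3 KO libraries, and results in set 2 are also given within each side.

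Promoters of 5 of the 8 genes were taken from the RefSeq table for GRCm38.p6 (250 bases before to 50 bases after the start). Of these genes, Id2, Id3 and Bmp4 moved in KO cells and Id4 and Smad6 with RA. Id1, Bmp7 and Bambi had none printed. Capitals mark a SMAD-type palindrome: GTCTAGAC, the SMAD palindrome, or GGCGCC, the GC-rich one. Each reads the same on both strands.

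Id2: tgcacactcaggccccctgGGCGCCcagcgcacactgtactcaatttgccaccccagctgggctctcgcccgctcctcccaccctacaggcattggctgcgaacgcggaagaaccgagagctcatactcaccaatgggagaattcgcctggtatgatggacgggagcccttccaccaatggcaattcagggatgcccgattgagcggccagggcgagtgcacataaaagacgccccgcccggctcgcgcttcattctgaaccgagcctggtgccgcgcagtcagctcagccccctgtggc
Id3: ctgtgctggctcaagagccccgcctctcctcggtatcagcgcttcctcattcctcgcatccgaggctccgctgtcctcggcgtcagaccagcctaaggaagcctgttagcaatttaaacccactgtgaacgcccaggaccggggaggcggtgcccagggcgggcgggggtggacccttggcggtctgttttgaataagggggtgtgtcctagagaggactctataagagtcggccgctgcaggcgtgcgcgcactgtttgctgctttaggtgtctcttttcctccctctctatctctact
Id4: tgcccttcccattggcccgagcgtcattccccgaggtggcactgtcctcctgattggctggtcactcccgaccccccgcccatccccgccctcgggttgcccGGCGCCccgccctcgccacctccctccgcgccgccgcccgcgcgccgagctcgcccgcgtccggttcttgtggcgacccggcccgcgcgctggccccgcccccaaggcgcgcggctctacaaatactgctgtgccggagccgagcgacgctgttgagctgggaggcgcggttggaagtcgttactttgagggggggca
Bmp4: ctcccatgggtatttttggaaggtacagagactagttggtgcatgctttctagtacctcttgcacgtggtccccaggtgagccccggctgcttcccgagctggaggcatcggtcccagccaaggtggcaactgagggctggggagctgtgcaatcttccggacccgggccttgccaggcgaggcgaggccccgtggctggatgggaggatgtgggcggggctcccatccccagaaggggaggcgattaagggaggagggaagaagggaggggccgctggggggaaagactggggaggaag
Smad6: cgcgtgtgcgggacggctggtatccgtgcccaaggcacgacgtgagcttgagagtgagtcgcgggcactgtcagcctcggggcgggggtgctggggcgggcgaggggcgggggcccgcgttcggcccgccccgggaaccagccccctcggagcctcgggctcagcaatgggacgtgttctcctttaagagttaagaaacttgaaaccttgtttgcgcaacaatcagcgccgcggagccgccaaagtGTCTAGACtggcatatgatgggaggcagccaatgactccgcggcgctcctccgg

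The promoter of Id2 lies at chr12:25096043-25096342 (minus strand), that of Id3 at chr4:136143572-136143871 (plus), that of Id4 at chr13:48260866-48261165 (plus), that of Bmp4 at chr14:46390620-46390919 (minus) and that of Smad6 at chr9:64022010-64022309 (minus). GGCGCC began 231 bases before the start of Id2 and 148 bases before that of Id4. It stood in 3898 of 32851 RefSeq promoters of this length (11.9%). GTCTAGAC began 4 bases before the start of Smad6 and stood in 70 of the 32851 (0.213%). Id3 and Bmp4 held neither string in this window, and no match at either string was tested for binding. The windows of Id2 and Id3 lie inside the gene spans of the counted annotation, given below, and that of Id4 ends before its span. The RefSeq starts used for these genes therefore differ from the 5′ ends of the counted genes.

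In the counted annotation (GRCm38) Id1 (ENSMUSG00000042745) spans chr2:152736251-152737410 on the plus strand, Id2 (ENSMUSG00000020644) chr12:25093799-25097140 on the minus strand and Id3 (ENSMUSG00000007872) chr4:136143497-136145755 on the plus strand. Id4 (ENSMUSG00000021379) spans chr13:48261228-48266026 on the plus strand. Bmp4 (ENSMUSG00000021835) spans chr14:46383520-46390669 and Bmp7 (ENSMUSG00000008999) chr2:172868012-172940321, both on the minus strand. Smad6 (ENSMUSG00000036867) spans chr9:63953076-64022059 on the minus strand and Bambi (ENSMUSG00000024232) chr18:3507923-3516404 on the plus strand. Of the 8, 2 overlap genes annotated on the opposite strand. Id4 overlaps A330033J07Rik, with 0 counts over all samples, and Gm49291, with 2. Bmp4 overlaps Gm15217, with 7 counts, and Gm15222, with 602. The span of Gm15217, which ends at 46383608, reaches over the 3′ end of Bmp4, where its tags fall. The headers record no strand setting, so reads of Bmp4 and of either gene cannot be told apart where they overlap. Such reads may have been left out, so the low count of Gm15217 does not show that no Bmp4 reads were lost.

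Loss of SET in untreated R1 cells went with higher Id1, Id2 and Id3 and with lower Bmp4. Over both sets, with set as a covariate, Id1 rose 1.92-fold, Id2 1.87-fold and Id3 2.77-fold, and Bmp4 fell to 0.438 of WT. Id4, Bmp7, Smad6 and Bambi did not pass the test. By edgeR's quasi-likelihood test with Benjamini-Hochberg adjustment over all genes and a threshold of 0.05, 4 of the 8 were called, 3 higher and 1 lower, where 19.1% of the 11515 genes tested were called (10.4% higher, 8.63% lower). The median log2 fold change of the 8 was 0.36, and that of all genes was -0.02. The 8 genes and the lists used below were chosen with earlier results of these data known. Their counts beside the shares of all genes, here and below, are descriptions and test no excess.

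Id3, the member with the largest rise, stood at 46.6 and 51.1 CPM in the set 1 WT samples and at 196 to 237 CPM in the 4 KO samples (KO1 237 and 198, KO2 196 and 220). In set 2 it was already at 528 and 609 CPM in WT and reached 1381 and 1378 CPM in KO1 and 1316 and 946 CPM in KO2. Every KO sample lay above every WT sample of its set. The log2 fold change was 2.12 ± 0.19 (SE; adjusted p = 2.81e-06) in set 1 and 1.13 ± 0.14 (adjusted p = 6.41e-05) in set 2. Id3 was thus called in both sets, and its rise on the log2 scale was smaller in set 2 by 1.00 ± 0.24 (SE; adjusted p = 0.0392 for the difference by edgeR). It was the only member among the 99 genes (0.828% of 11950) called for that difference, and the call was kept in 6 of 17 alternatives, with adjusted p from 0.00316 to 0.258 (0.0829 with libraries kept separate) and a difference of -0.88 to -1.10.

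Id1 was 75.1 and 108 CPM in set 1 WT, 199.5 and 179 in KO1 and 150.2 and 151 in KO2. In set 2 it was 126 and 131 CPM in WT, 319 and 242 in KO1 and 288 and 190 in KO2. The groups did not overlap in either set. The log2 fold change was 0.88 ± 0.20 (SE; adjusted p = 0.00718 by edgeR) in set 1 and 1.00 ± 0.16 (adjusted p = 0.000723) in set 2. Without sample 1a, the lower of the set 1 WT samples, the set 1 value was 0.65 with adjusted p = 0.144.

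Id2 was 75.1 and 87.2 CPM in set 1 WT, 221 and 219 in KO1 and 188 and 166 in KO2. Set 2 WT samples were at 107 and 105 CPM, KO1 at 181 and 184 and KO2 at 178 and 132.5. All KO samples were again above WT in both sets. Its log2 fold change was 1.28 ± 0.19 (SE; adjusted p = 0.000206 by edgeR) in set 1 and 0.66 ± 0.13 (adjusted p = 0.00241) in set 2. The set 2 call was lost without sample 2b (0.64, adjusted p = 0.0975) and with every library as its own sample (0.53, adjusted p = 0.108). A difference between sets of -0.63 ± 0.23 (SE; adjusted p = 0.263) did not pass.

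Id4, whose product is best known in neural progenitors, was low. In set 1 it gave 5 and 8 counts in WT and 7 to 13 in KO, and the low-count filter kept it out of the set 1 fit. It was at 13.2 and 13.9 CPM in set 2 WT and at 8.12 to 19.0 CPM in set 2 KO, so the WT values lay inside the KO range. The set 2 log2 fold change was 0.15 ± 0.27 (SE; adjusted p = 0.783 by edgeR).

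**Figure D1:**
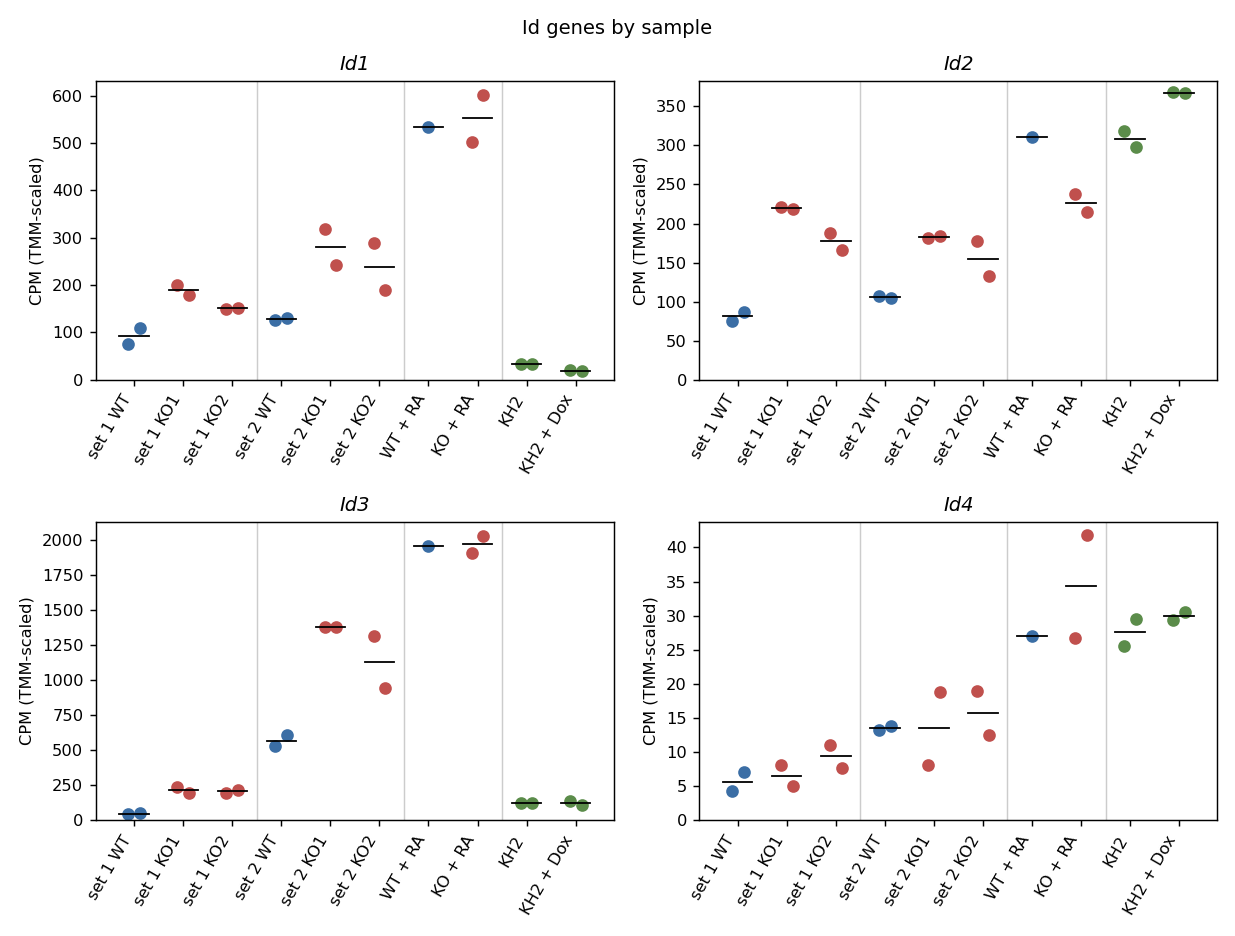
Levels of Id1, Id2, Id3 and Id4 in each of the 19 samples, in TMM-scaled CPM on linear axes, by group (points are samples, bars are group means, WT blue, KO red, KH2 green). Id1, Id2 and Id3 are higher in each KO sample than in either WT sample of that set, and Id3 differs most between sets, with WT at 46.6 and 51.1 CPM in set 1 and 528 and 609 CPM in set 2.

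Among the ligands, Bmp4, which serum-grown ESCs make themselves, stood at 90.7 and 59.9 CPM in set 1 WT. In set 1 KO it was 18.7 and 13.5 CPM in KO1 and 23.9 and 28.9 in KO2. The groups were far apart, and the log2 fold change was -1.81 ± 0.28 (SE; adjusted p = 0.000335 by edgeR). In set 2 the WT samples were at 15.7 and 23.4 CPM and the KO samples at 10.2 to 15.1 CPM. The ranges came close without overlapping, and the log2 fold change of -0.63 ± 0.22 (SE; adjusted p = 0.083) did not pass. The test of the difference between sets did not pass either (1.16 ± 0.37, adjusted p = 0.172). The call over both sets was kept in all 18 alternatives run (log2 -1.40 to -0.94).

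Bmp7, a ligand of the same family that acts in kidney and nervous system formation, was low in untreated R1 cells. It had 5 and 7 counts in set 1 WT and 3 to 10 counts in set 1 KO and was not tested there. In set 2 it was 5.78 and 3.04 CPM in WT and 4.96 to 7.75 CPM in KO (log2 0.72 ± 0.35 SE, adjusted p = 0.218 by edgeR). The set 2 ranges overlapped.

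The inhibitors were low and gave no call. Smad6, which blocks SMAD phosphorylation at the receptor, was 15.5 and 7.93 CPM in set 1 WT and 4.27 to 11.9 CPM in set 1 KO. In set 2 it was 15.1 and 12.8 CPM in WT and 10.3 to 16.6 CPM in KO. Over both sets its log2 fold change was -0.12 ± 0.23 (SE; adjusted p = 0.754 by edgeR, 95% interval -0.58 to 0.33). Bambi, a decoy receptor without a kinase domain, was 16.4 and 23.8 CPM in set 1 WT and 7.82 to 26.8 CPM in set 1 KO, then 11.9 and 14.1 CPM in set 2 WT and 6.83 to 18.5 CPM in set 2 KO. Its log2 fold change over both sets was -0.36 ± 0.27 (SE; adjusted p = 0.396 by edgeR, 95% interval -0.89 to 0.18).

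In separate fits of each set, 4 of the 6 members tested were called in set 1 (Id1, Id2 and Id3 higher, Bmp4 lower), where 12.3% of genes were called. In set 2 it was 3 of 8 (Id1, Id2 and Id3, all higher), where 9.19% of genes were called.

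**Figure D2:**
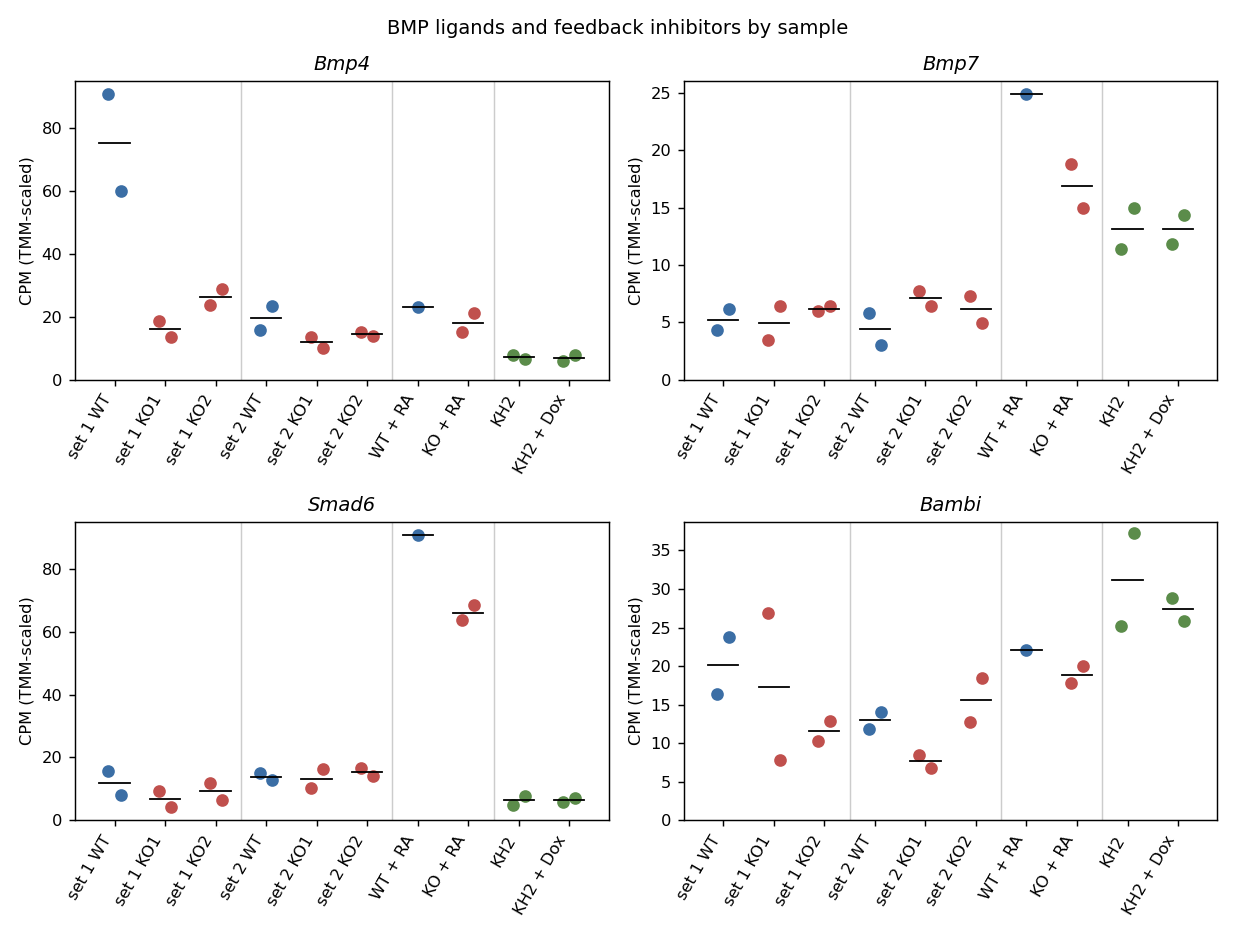
Levels of Bmp4, Bmp7, Smad6 and Bambi in each of the 19 samples, in TMM-scaled CPM on linear axes, by group (points are samples, bars are group means, WT blue, KO red, KH2 green). Bmp4 is highest in the set 1 WT samples at 90.7 and 59.9 CPM, and Smad6 and Bmp7 are highest after RA.

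Within set 2, Id1 and Id3 were called higher on both sides of the library split. Title codes 2a, 2b, 2d and 2e had a library on each side, so the sides are not independent samples. On side A, Id3 was 554 and 621 CPM in the 2 WT libraries and 841 to 1310 CPM in the 3 KO libraries, and on side B 500 and 547 CPM against 1368 to 1467 CPM. The log2 fold changes were 0.80 (adjusted p = 0.0153 by edgeR) on side A and 1.42 (adjusted p = 5.06e-25) on side B. The sides were cut from these same counts, which takes spread along that component out of each side. The p-values within sides may therefore be too small. Id1 changed by 0.68 (adjusted p = 0.00973) on side A and by 1.02 (adjusted p = 2.98e-13) on side B. Id2 passed on side B (0.53, adjusted p = 0.000167) and not on side A (0.49, adjusted p = 0.078), and the difference between sides was not tested. Bmp4 was 21.8 and 26.7 CPM in WT and 9.08 to 14.0 CPM in KO libraries on side A (log2 -1.04, adjusted p = 0.0314), but 10.5 and 10.7 CPM in WT and 10.8 to 15.5 CPM in KO libraries on side B (0.32, adjusted p = 0.581). The lower Bmp4 of set 2 KO was therefore seen in the side A libraries and not in those of side B, a contrast that was not tested.

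**Figure D3:**
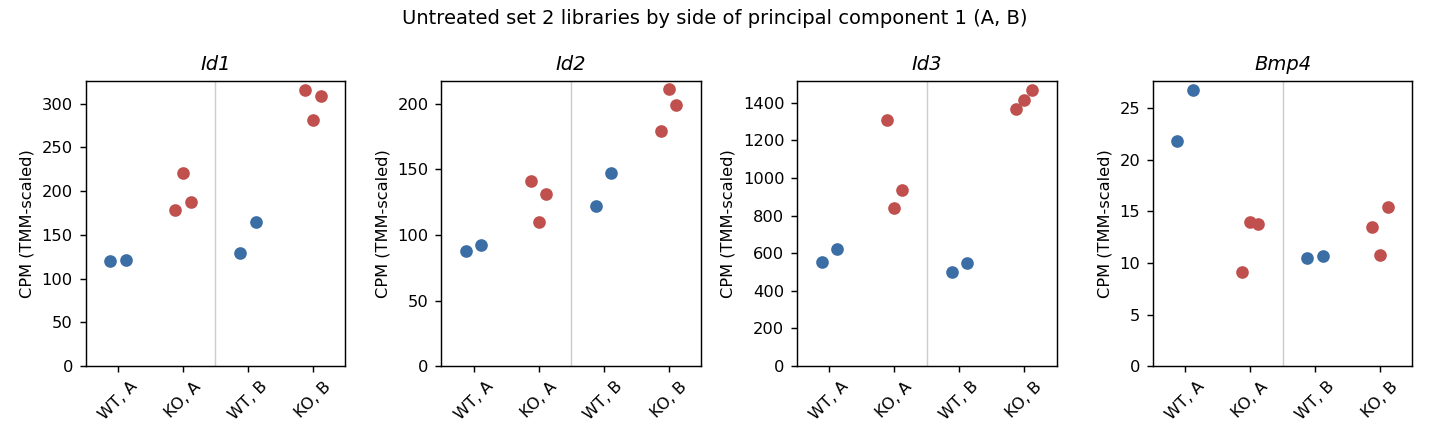
Levels of Id1, Id2, Id3 and Bmp4 in the 10 untreated set 2 libraries, in TMM-scaled CPM on linear axes, by genotype and side (A or B) of the first principal component (points are libraries, WT blue, KO red). KO libraries are above WT libraries on both sides for Id1, Id2 and Id3, and Bmp4 is lower in KO on side A, with WT at 21.8 and 26.7 CPM, but not on side B.

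Markers of other cells moved with the KO groups. The summed level of 12 feeder fibroblast markers was 17.6 and 33.7 CPM in set 1 WT (Postn, Lum, Dcn and Fap at 0) and 91.7 to 123 CPM in set 1 KO (Lum at 0), and 82.6 and 102 CPM in set 2 WT (Lum at 0) against 114 to 171 CPM in set 2 KO. The 10 endoderm markers summed to 211 and 228 CPM in set 1 WT and 254 to 299 CPM in KO, and to 193 and 203 CPM in set 2 WT and 329 to 365 CPM in KO. The 8 trophectoderm markers summed to 144 and 155 CPM in set 1 WT (Cdx2 and Elf5 at 0) and 301 to 406 CPM in KO (Elf5 at 0), and to 234 and 253 CPM (Elf5 at 0) against 328 to 433 CPM in set 2. The 10 ESC markers summed to 3783 and 4429 CPM in set 1 WT and 1779 to 2145 CPM in KO, and to 2854 and 3007 CPM in set 2 WT and 1760 to 2170 CPM in KO. The 10 neural markers summed to lower levels in KO, at 583 and 696 CPM in set 1 WT (Pax3, Zic1 and Dcx at 0) against 348 to 408 CPM (Dcx at 0), and at 710 and 724 CPM in set 2 WT against 415 to 492 CPM. Over both sets 8 of 10 ESC markers were called lower, 6 of 9 endoderm, 3 of 6 trophectoderm and 2 of 8 feeder markers higher, and of 6 neural markers 4 lower and 1 higher. Their part in the change of the Id genes and Bmp4 was not tested. In these bulk samples fewer cells of a type and less RNA per cell cannot be told apart.

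Of the other BMP pathway and ID partner genes, 85 listed by role, 47 were tested over both sets, and 12 were called higher and 5 lower. Of all 11515 genes in that fit 10.4% were called higher and 8.63% lower, and the counts by role below are to be read beside these shares. The median log2 fold change of the 47 was 0.27. Fitted alone, 36 were tested in set 1, with 5 called higher and 3 lower, where 12.3% of all genes were called. In set 2, 50 were tested, with 5 called higher and 2 lower, where 9.19% of all genes were called. Among ligands 2 of 4 tested were called, both higher. Bmp2, an activating ligand close to Bmp4, had 3 counts in set 1 WT and 66 in set 1 KO, a ratio of 10.1 (95% counting interval 3.32 to 50.5), and 3.80 against 6.86 CPM in set 2. Its log2 fold change over both sets was 1.35 ± 0.32 (SE; adjusted p = 0.00405 by edgeR). Bmp8b had 4 and 59 counts in set 1 (1.44 over both sets, adjusted p = 0.00584). Both were called in set 1 alone, and neither in set 2 alone (adjusted p = 0.103 for Bmp2 and 0.113 for Bmp8b by edgeR).

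Among receptors and coreceptors 2 of 9 were called higher, the BMP coreceptor Rgmb (1.06, adjusted p = 0.000448 by edgeR) and Tgfbr3 (1.25, adjusted p = 0.00114). None of the 3 SMAD transducers tested was called. Among extracellular binders of BMPs 4 of 6 were called, all higher: Fstl1 (0.73, adjusted p = 0.000494), Crim1 (1.20, adjusted p = 0.00123), Bmper (1.34, adjusted p = 0.00892) and Fst (1.497, adjusted p = 0.025). In set 2 alone Fstl1, Crim1 and Fst were called and Bmper was not (adjusted p = 0.0647 by edgeR). Fst, the activin and BMP binder follistatin, gave 6 counts in set 1 WT and 223 in set 1 KO, a ratio of 17.1 (95% counting interval 7.75 to 47.2), and 17.1 against 32.2 CPM in set 2. The difference between sets passed for Fst (-3.18 ± 0.63 SE, adjusted p = 0.0119 by edgeR) and for Crim1 (-1.68 ± 0.35, adjusted p = 0.0169), the only 2 of the 47 listed genes tested for it.

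Of 11 intracellular inhibitors 2 were called, both lower, namely Smad7 (-0.46, adjusted p = 0.0109 by edgeR) and Tob1 (-0.64, adjusted p = 0.0331). Smad7, which like Smad6 blocks SMAD signalling at the receptor, was at 132 CPM on average in set 1 WT and 81.0 in KO, and at 50.6 and 43.9 CPM in set 2. It was called in set 1 alone (adjusted p = 0.0244 by edgeR) and not in set 2 alone (adjusted p = 0.369). Tob1 was called in neither set alone (adjusted p = 0.0701 and 0.318). Of 7 tested genes listed as other BMP targets, 3 were called higher by edgeR. They were Dusp9 (0.51, adjusted p = 0.0119), Tbx20 (1.602, adjusted p = 0.0244) and Msx1 (1.08, adjusted p = 0.026). In set 2 alone Dusp9 and Msx1 did not pass (adjusted p = 0.0989 and 0.0664) and Tbx20 was not tested. The list also holds Zfp423, a zinc-finger partner of SMADs, which was called lower (-0.82, adjusted p = 0.000253). Zfp423 was called lower in each set alone as well. Tbx20 had 0 counts in set 1 WT and 25 in set 1 KO, which is at least 3.84-fold higher against a floor of 3 counts over the WT group. Msx1 had 2 and 14 counts in set 1.

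Among the bHLH proteins that ID proteins bind or oppose, the E proteins split: Tcf12 was called higher (0.41, adjusted p = 0.0296 by edgeR), Tcf4 lower (-0.35, adjusted p = 0.0242), and Tcf3 was not called. Of 4 tissue bHLH genes tested, Tcf15, a bHLH factor of ESCs and paraxial mesoderm, was called lower. It averaged 618 CPM in set 1 WT and 138 in KO, and 511.5 CPM in set 2 WT and 199 in KO. Its log2 fold change over both sets was -1.77 ± 0.18 (SE; adjusted p = 1.3e-05 by edgeR).

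The Id genes and the inhibitor Smad6 were higher after RA in both genotypes. No sample without RA is labelled as kept in culture for the same time. An effect of RA therefore cannot be told apart from one of time or other changes in culture. In WT, where the single RA sample was assumed to vary like the other set 2 groups, 6 of 8 members were called, all higher, and 47.3% of the 14659 genes tested were called (24.8% higher). In KO it was 7 of 8, all higher, where 55.1% of genes were called (28.3% higher). The median log2 fold change of the 8 was 1.64 in WT and 0.93 in KO, beside -0.03 and -0.01 for all genes. Here and below, an RA effect is the difference between RA and untreated samples of a genotype. Both RA effects were fitted with the other set 2 samples, the KO one against the mean of KO1 and KO2.

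Smad6 reached 90.6 CPM in the WT RA sample and 63.7 and 68.3 CPM in the KO RA samples, against at most 16.6 CPM in any untreated set 2 sample. Its log2 fold change was 2.70 ± 0.22 (SE; adjusted p = 8.41e-11 by edgeR) in WT and 2.14 ± 0.16 (adjusted p = 9.98e-12) in KO, and it was called in every alternative run for both. Bambi was 22.1 CPM in WT and 17.8 and 20.0 CPM in KO after RA. Its ranges with and without RA overlapped in KO. It was called in KO (0.80 ± 0.22, adjusted p = 0.00319) and not in WT (0.70 ± 0.30, adjusted p = 0.0531), and the difference between these was not called (0.09 ± 0.37, adjusted p = 0.963). Leaving out KO sample 2i ended the KO call (adjusted p = 0.051), and leaving out 2e or 2f made the WT call (adjusted p = 0.0364 and 0.0377).

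Id1 reached 534 CPM in WT and 503.5 and 602 CPM in KO after RA, log2 changes of 2.02 ± 0.19 (SE; adjusted p = 2.91e-08 by edgeR) and 1.07 ± 0.13 (adjusted p = 1.07e-06). Id3 reached 1958 CPM in WT and 1907 and 2033 CPM in KO, log2 changes of 1.75 ± 0.15 (adjusted p = 2.72e-10) and 0.63 ± 0.11 (adjusted p = 1.78e-05). For both genes the WT value lay between the KO values. Id2 reached 311 CPM in WT but 238 and 215 CPM in KO, so it was above both KO samples, with log2 changes of 1.52 ± 0.15 (adjusted p = 3.96e-09) and 0.40 ± 0.11 (adjusted p = 0.00308). The Id2 call in KO was lost without sample 2h (adjusted p = 0.079), with the samples titled KO1 alone as the untreated group (adjusted p = 0.0697) and with every library as its own sample (adjusted p = 0.0751). Id4 reached 27.0 CPM in WT and 26.7 and 41.9 CPM in KO (0.96 ± 0.35, adjusted p = 0.0291, and 1.13 ± 0.24, adjusted p = 0.000345). Its WT call was lost without 2a or 2b (adjusted p = 0.0759 and 0.0965), with every library as its own sample (adjusted p = 0.0852) and by the DESeq2 Wald test (adjusted p = 0.0726).

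The ligands differed. Bmp7 reached 24.9 CPM in WT and 18.8 and 15.0 CPM in KO after RA, log2 changes of 2.63 ± 0.37 (SE; adjusted p = 1.04e-06 by edgeR) and 1.32 ± 0.26 (adjusted p = 8.84e-05). Bmp4 was 23.1 CPM in WT and 15.2 and 21.0 CPM in KO after RA. The WT value lay within the untreated WT range. Both KO values lay above the untreated KO range, whose top was 15.1 CPM, the lower of them only just. It was not called in WT (0.15 ± 0.29, adjusted p = 0.697) or KO (0.45 ± 0.22, adjusted p = 0.0852).

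After RA, none of the 8 members was called between KO and WT, where 58 of 14659 genes (0.396%) were called and 929 had an unadjusted p under 0.05. The DESeq2 Wald test called 43 genes and no member. Id1 differed by 0.03 ± 0.19 on the log2 scale (SE; adjusted p = 0.993 by edgeR, 95% interval -0.35 to 0.41) and Id3 by -0.01 ± 0.16 (adjusted p = 0.999, interval -0.31 to 0.30), whereas in untreated set 2 cells they differed by 1.00 and 1.13. Id2 differed by -0.47 ± 0.15 (adjusted p = 0.354, interval -0.77 to -0.17) and Smad6 by -0.47 ± 0.20 (adjusted p = 0.667, interval -0.87 to -0.07).

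The difference between the RA effects, KO minus WT, was called for Id2 (-1.12 ± 0.19 SE, adjusted p = 0.00233 by edgeR) and Id3 (-1.12 ± 0.19, adjusted p = 0.00233), 2 of 8 members where 1.09% of genes were called. Id1 had -0.95 ± 0.24 (adjusted p = 0.0593) and Bmp7 -1.32 ± 0.46 (adjusted p = 0.203). Untreated Id2 and Id3 were higher in KO, and WT after RA is 1 sample. Both calls were lost with every library as its own sample (adjusted p = 0.615 for Id2 and 0.234 for Id3), and that of Id3 without sample 2h (adjusted p = 0.0575). Id1 was called in 5 of 13 alternatives, with adjusted p from 0.000162 to 0.717.

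**Figure D4:**
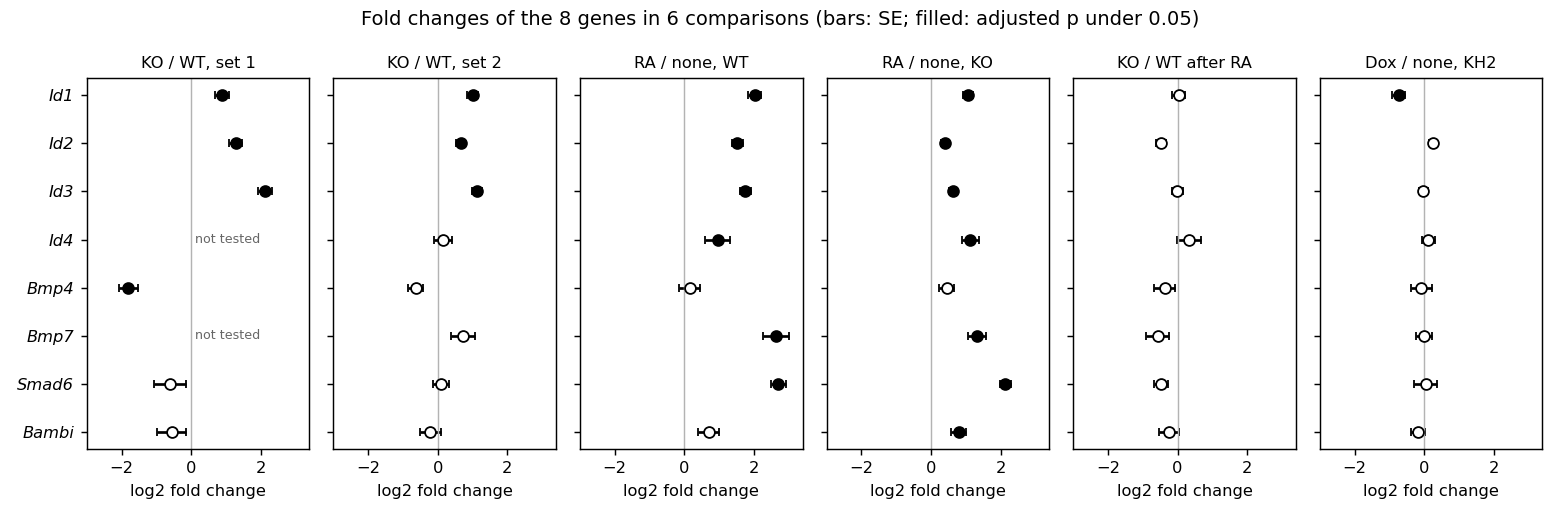
Log2 fold changes of the 8 genes in 6 comparisons from edgeR (points are estimates, bars are SE, filled points have an adjusted p under 0.05). Id1, Id2 and Id3 are filled on the right in both KO comparisons and both RA comparisons and unfilled in KO against WT after RA, and Id4 and Bmp7 were not tested in set 1.

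The 10 ESC markers fell to a sum of 264 CPM in WT and 314 and 320 CPM in KO after RA, all 10 being called lower in each genotype. Feeder markers stood at 742 CPM in WT (Lum at 0) and 729 and 776 CPM in KO after RA, with 9 of 10 called higher in each genotype, and endoderm markers at 298 CPM in WT (Hnf4a at 0) and 528 and 546 CPM in KO. Trophectoderm markers summed to 302 CPM in WT and 383 and 430.5 CPM in KO (Elf5 at 0 in both), and neural markers to 475 CPM in WT and 380 and 452 CPM in KO. Several genes of the feeder list are also made by mesenchymal cells. What part these markers have in the RA values of the members was not tested.

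Of the 63 listed pathway genes tested, 40 were called higher with RA in WT and 3 lower, with a median log2 fold change of 1.09. In KO the counts were 40 higher and 6 lower, with a median of 0.89. Of all 14659 genes 24.8% were called higher and 22.5% lower in WT, and 28.3% and 26.8% in KO. All 3 SMAD transducers tested were called higher in WT, Smad1 by 2.31 ± 0.23 (SE; adjusted p = 4.85e-09 by edgeR), Smad5 by 0.88 and the shared partner Smad4 by 0.67. Of 11 receptors 7 were called higher, among them Rgmb (2.52), Eng (1.98), Acvr1 (1.75) and Bmpr2 (1.71). Of 13 extracellular binders 11 rose, led by Crim1 (3.24) and Fstl1 (3.57). Fstl1 averaged 122 CPM in untreated set 2 WT and 1485 CPM in the WT RA sample.

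Of 11 other BMP target genes 8 were called higher in WT with RA. The homeobox genes Msx1 and Msx2 rose by 3.92 and 4.68, and Gata3 by 3.81 on the log2 scale (largest adjusted p of these 1.63e-11 by edgeR). Msx1 reached 101.5 CPM in the WT RA sample and averaged 67.3 CPM in KO RA, from 6.79 and 13.7 CPM untreated. It was the only listed gene called for the difference between RA effects (-1.65 ± 0.35, adjusted p = 0.0178 by edgeR), where 1.09% of all genes were called. That contrast rests on 1 WT RA sample, and with every library as its own sample it called 2 genes in all. Among ligands, Bmp2 rose (2.21) and Gdf3, a ligand of pluripotent cells, fell (-4.05, adjusted p = 6.06e-12). Both Tcf4 (0.93) and Tcf12 (1.22) rose, Twist1 rose (3.33) and Tcf15 fell (-5.11, adjusted p = 8.74e-05). After RA none of the 63 was called between KO and WT.

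**Figure D5:**
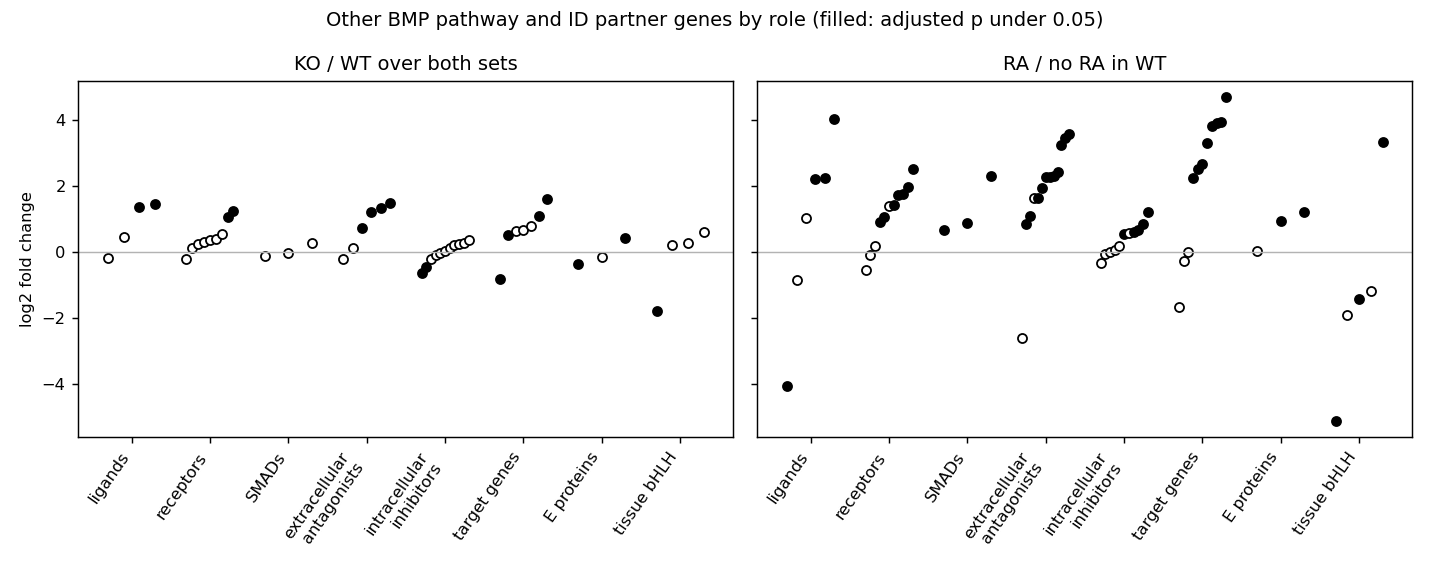
Log2 fold changes of the other BMP pathway and ID partner genes by role, for KO against WT over both sets (left) and for RA in WT (right), each point a gene and filled where the adjusted p is under 0.05 by edgeR. KO cells show 12 filled points above 0 and 5 below among 47 genes, and RA shows 40 above and 3 below among 63.

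In KH2 cells, Set tags stood at 985 and 931 CPM without Dox and at 1217 and 1094 CPM with Dox, and no test of Set is given. Dox, added to induce SETa, went with lower Id1. Its level was 32.4 and 32.3 CPM without Dox and 20.3 and 18.3 CPM with Dox, and the groups did not overlap. The log2 fold change was -0.73 ± 0.19 (SE; adjusted p = 0.0394 by edgeR). Id1 was the only member called of 8, where 1.80% of the 12723 genes tested were called. The call was lost when any 1 of the 4 samples was left out (log2 -0.66 to -0.83, adjusted p = 0.183 without the first and 0.386 without the second sample lacking Dox, and 0.0566 and 0.136 without either Dox sample), and by the DESeq2 Wald test (adjusted p = 0.0961). Dox itself was not given to cells without the construct, so an effect of Dox cannot be told apart from one of SETa.

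Id2 was higher in both Dox samples, at 368 and 367 CPM against 318 and 298 CPM, but was not called (0.26 ± 0.11 SE, adjusted p = 0.229 by edgeR). Id3 was 125 and 123 CPM without and 136 and 106 CPM with Dox (-0.02, adjusted p = 0.966). Id4, Bmp4, Bmp7, Smad6 and Bambi had overlapping groups. None of the 47 listed pathway genes tested was called. The feeder markers summed to 721 and 764 CPM without Dox and to 425 and 513 CPM with Dox (Lum at 0), 3 of 9 being called lower, and ESC markers to 3929 and 3972 CPM against 4428 and 4583 CPM, 2 of 10 being called higher. The part of either in the Id1 value was not tested.

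Across the 10 groups, split by line and treatment, the order of the group means differed between members. Each group held 1 or 2 samples, and how many pairs are apart for other genes was not computed. The counts of pairs apart are therefore descriptions only. Id1 ran from KH2 cells with Dox (19.3 CPM) and without (32.4) through set 1 WT, set 2 WT, set 1 KO2 and KO1, and set 2 KO2 and KO1, to WT RA and KO RA (534 and 553 CPM). The sample ranges of 6 of its 9 neighbouring pairs were apart. Id3 ran from set 1 WT (48.9 CPM) through KH2 cells with and without Dox, set 1 KO2 and KO1, set 2 WT, KO2 and KO1 to WT RA and KO RA (1958 and 1970 CPM), with 6 of 9 pairs apart. The exceptions for Id3 were the KH2 pair, the set 1 KO pair and the RA pair. Its mean in WT cells was 11.6 times as high in set 2 as in set 1, the widest of the 8 such ratios, and that contrast was not tested.

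Id2 had another order, with set 1 WT (81.2 CPM) and set 2 WT (106) lowest and WT RA (311) and KH2 with Dox (367) highest, and 5 of 9 pairs apart. KH2 cells thus had the lowest Id1 and among the highest Id2. Id4 had only 1 of 9 pairs apart, that between set 2 KO2 and WT RA, which separates untreated R1 groups (5.68 to 15.8 CPM) from RA and KH2 groups (27.0 to 34.3 CPM). For Bmp4 4 of 9 pairs were apart, with KH2 lowest (6.91 and 7.24 CPM) and set 1 WT highest (75.3 CPM). Bmp7 had 4 of 9 apart, with untreated R1 groups at 4.41 to 7.11 CPM, KH2 at 13.1 and 13.2 CPM and RA groups at 16.9 and 24.9 CPM. Smad6 had 2 of 9 apart. Of these, 1 set both RA groups above all others and 1 set KO RA below WT RA. Bambi had 2 of 9 apart, with set 2 KO1 lowest (7.66 CPM) and KH2 highest.

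As a description over the same 10 group means, which share cell lines and library sets, the members did not follow 1 pattern. Pearson's r of log2(CPM + 1) was 0.80 between Id1 and Id3, 0.77 between Id1 and Smad6 and 0.75 between Id3 and Smad6, but -0.17 between Id1 and Id2. Id4 and Bmp7 had 0.84, Id2 and Bmp7 0.75, and Id2 and Bmp4 -0.74. Of 8738 genes averaging 10 CPM or more, those most like Id1 were Flrt3 (r = 0.990), Fam57a (0.983) and Gosr2 (0.981). Those most like Id2 were Cln6 (0.942), Laptm4b (0.941) and Ahcyl1 (0.940), and those most like Id3 were Fbxo46 (0.994), Pbx3 (0.991) and P4hb (0.989). Id4 was nearest to Gpr107 (0.982), Snhg18 (0.969) and Sec63 (0.964). Bmp4 was nearest to Uba3 (0.982), Capn7 (0.953) and Dpp9 (0.95), and Bmp7 to Prkra (0.975), Nol4l (0.972) and Erlec1 (0.970). Smad6 was nearest to Casd1 (0.990), Letmd1 (0.989) and Zfp46 (0.985), and Bambi to Elp4 (0.948), Sqstm1 (0.919) and Pcmtd2 (0.915).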

How the data were processed

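Polyadenylated RNA of 23 mouse ESC libraries was measured by 3′ tag sequencing (QuantSeq, 500 ng RNA per the labels' protocols). The deposited values are raw gene counts. Per the file headers they were counted by featureCounts 1.6.0, without a strand or multimapping option, against Ensembl 97 (GRCm38). The submitters' processing notes name STAR 2.5.4b and Subread 2.0.0. By default such counting leaves out reads that map to several places, so members with near copies could be undercounted. The 179 genes without a symbol held at most 0.00066% of a library's counts, and no libraries were identical.

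Libraries sharing a title code were summed. The floor of 3 counts was 0.294 to 3.72 CPM per sample and covers counting error only. The quasi-likelihood F test of edgeR 4.0.16 was used (R 4.3.3, TMM, filterByExpr with minimum count 10 and total 15, robust dispersions), adjusted by Benjamini-Hochberg over all genes of a fit, threshold 0.05. Set 1 and set 2 were fitted together with set as a covariate, alone, and as an interaction. RA contrasts came from 1 fit of set 2 by group means, and KH2 was fitted alone. Alternatives were DESeq2 1.42.0 (size factors, Wald test), every library as a sample, no low-count filter, replicate blocks, sums per line and set, sides of the first principal component in set 2, KO1 alone as the untreated KO group, and each sample left out. Scripts were tested on simulated counts. SE is the log2 fold change divided by the square root of F, and 95% intervals use it with a normal quantile. They are therefore narrower than the F test implies. Bmp7 in set 2, for example, has an interval of 0.035 to 1.41 beside an unadjusted p of 0.0528 by edgeR.

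Named genes were all 8 members, up to 4 called genes with the smallest adjusted p of each pathway list, of which some are given by count, and 3 genes of highest r per member (mean of at least 10 CPM, pseudocount 1). The members and lists were chosen with earlier results of these data known. Promoters come from RefSeq. Python 3.11.15, pandas 2.3.3, numpy 2.4.6 and matplotlib 3.10.9 were used.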

Additional observations from a re-analysis of the deposited data

Results flagged for a closer look

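In set 2 KO cells, sample 2f stood apart from the other 3 KO samples for Id2, at 132.5 CPM, and for Id3, at 946 CPM. It is 1 library, on side A of the first principal component. Bmp7 in set 1 KO stood apart in sample 1c at 3.501 CPM, which is 3 counts. Chance alone would mark about 1 in 20 of the 16 groups looked at.

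The rise of Id3 in KO cells differed between sets by -0.996 on the log2 scale (set 2 minus set 1). The change between untreated and RA samples differed between genotypes by -1.12 for Id2 and by -1.12 for Id3 (KO minus WT).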

How the results depend on the processing

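No result changed direction while past its threshold. The calls of Id1, Id2, Id3 and Bmp4 over both sets were kept in all 18 alternatives. Counts of called genes moved by over 1.5 times as follows. KO against WT over both sets gave 1426 with counts summed per line and set. Set 2 gave 759 with every library its own sample and 434 on side A alone. The difference between sets gave 171 without the low-count filter. KO against WT after RA gave 94 without the filter and 8 with every library its own sample. The difference between RA effects gave 98 by the DESeq2 Wald test, 284 without the filter and 2 with every library its own sample. Dox gave 127 by the DESeq2 Wald test.

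Leaving out 1 sample gave 1553 to 2416 calls over both sets, 570 (without 1a) to 1388 in set 1, 195 (without 2b) to 2335 (without 2f) in set 2, 22 (without 1a) to 127 for the difference between sets, 5558 to 7224 for RA in WT, 6191 to 7919 for RA in KO, 15 (without 2i) to 98 (without 2f) for KO against WT after RA, 27 (without 2b or 2h) to 388 (without 2f) for the difference between RA effects, and 6 (without the second untreated KH2 sample) to 234 for Dox. Other samples that moved a count by over 1.5 times were 1e in set 1 (776), 2a (502), 2d (748) and 2e (607) in set 2, 1b (44), 1e (52), 2a (43), 2b (41), 2d (52) and 2e (62) for the difference between sets, 2e (94) and 2h (34) for KO against WT after RA, 2a (95) and 2i (59) for the difference between RA effects, and the first untreated KH2 sample for Dox (46). A lone sample was assumed to vary like the other groups. The cause of these shifts was not tested.

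With the replicate number as a block, and every library its own sample, counts were 454 in set 2, 43 for the difference between sets and 724 for Dox. Member calls lost under the block were Id2 in set 2 (0.69, adjusted p = 0.0631 by edgeR) and Id3 for the difference between sets (adjusted p = 0.18). Deviations of same-numbered libraries correlated from -0.144 to 0.0457 in set 1 (6 pairs), from -0.267 to 0.225 in set 2 (9 pairs) and at 0.0355 in KH2. In set 1 and KH2 each group holds 2 samples, whose deviations mirror each other, so the pairs are not independent. These values cannot settle whether the numbers pair the samples. No paired analysis was possible because RA samples carry no replicate numbers for those contrasts. Depth limits Bmp7 and Id4 most, with 3 to 13 counts per set 1 sample.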
